A study of Populus tremula x Populus alba with 72 samples.

Results

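Growing and expanded leaves of young hybrid poplar trees kept in filtered air were compared on day 8. The comparison rests on 8 of the 72 libraries of the study, 4 from growing leaves and 4 from expanded leaves, chosen by their labels alone. All trees belonged to 1 clone, INRAE 717-1B4 of Populus tremula x alba, a micropropagated line widely used for poplar genetics, so the results describe a single genotype. The trees were 2.5 months old when the exposures began. The controls breathed charcoal-filtered air without added ozone. The other groups used below are control leaves of both positions on days 2 and 13, and leaves of both positions on day 8 from trees that received 80 ppb or 100 ppb ozone during the daytime in the same filtered air. Each of these groups also held 4 libraries. The growing and expanded leaves differ both in developmental stage and in place on the tree, and these cannot be told apart. The labels do not say whether libraries with different numbers came from different trees or chambers. The p-values below reflect only how far libraries scatter within their groups, which may be technical. Unless stated otherwise, those by limma take this scatter from all 72 libraries of the study, ozone groups included.

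A young leaf imports sugar from older leaves while its cells divide and enlarge, and it builds its cell walls, chloroplasts and veins during that time. Once expanded, a leaf exports the sugar it fixes to the growing organs above and to the stem and roots, and later it returns its nitrogen to the tree as it ages. Leaves of both kinds hold many cell types (epidermis, stomata, mesophyll and vascular tissue), whose proportions shift as the leaf matures. In RNA from whole leaf tissue, fewer cells of a type and less RNA per cell cannot be told apart. The deposited table lists genes by identifier (Potri numbers) and pairs none with a name or a function. The genes below are therefore described by their levels and patterns, no function is given for any of them, and the labelled leaf stages were not checked against marker genes here.

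The 4 growing leaf libraries held 33.5 M, 35.1 M, 37.6 M and 34.5 M reads assigned to genes (M for mega-reads), and the 4 expanded leaf libraries 45.3 M, 35.1 M, 54.3 M and 48.4 M, against a median of 39.4 M over all 72. The values used are normalized counts, that is reads divided by 1 size factor per library. Of the 4 expanded leaf libraries, 3 were deeper than every growing leaf library, and the part of this depth gap in the results was not tested. Between 2 libraries of the same position, log2 levels across genes correlated at 0.982 to 0.988 over 12 pairs, and between positions at 0.892 to 0.932 over 16 pairs. The first principal component of the 8 libraries held 77.3% of their variance and separated the positions, at 98.0 ± 9.10 (SD, n = 4) in growing leaves and −98.0 ± 15.8 in expanded leaves.

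More of the tested genes differed between growing and expanded leaves than did not, about equally in both directions. Of 27780 genes tested, 15106 differed between growing and expanded control leaves on day 8 (54.4% of the genes tested), 7540 of them higher (27.1%) and 7566 lower (27.2%) in growing leaves, by limma at an adjusted p of 0.05. Over all tested genes, called or not, the median size of the difference was 0.48 on the log2 scale, with a median standard error of 0.19. Among the called genes the median log2 difference was 0.95 in the higher and −0.73 in the lower ones. At least 2-fold differences made up 6366 of the called genes (42.1%), 3585 higher and 2781 lower (12.9% and 10% of the tested genes). A difference of at least 4-fold was called in 1163 genes higher and 1117 lower (4.19% and 4.02%), at least 10-fold in 335 and 318 (1.21% and 1.14%), and at least 100-fold in 18 and 19. Normalized counts of the 4 growing libraries all lay above the 4 expanded ones in 7780 tested genes (28%) and all below in 8025 (28.9%), together 56.9%. Of the called genes, 6969 higher and 6921 lower were separated in this way, and 1216 were called although the libraries overlapped.

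This even split depended on how the libraries were scaled. With each library scaled to the same total instead of by size factors, 16942 genes were called, 4693 higher and 12249 lower, so that 27.7% of the called genes were higher instead of 49.9%. The median over all tested genes moved from −0.02 to −0.32 on the log2 scale. Under equal totals 859 genes were at least 4-fold higher and 1461 at least 4-fold lower. Of the 12674 genes that were not called by the size factors, 8788 (69.3%) had a 95% interval of the difference that stayed within 2-fold and 6061 (47.8%) one within 1.5-fold. The remaining genes could differ by more than 2-fold at this precision.

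The genes named here stood at the ends of the range by a rule on size, level and separation, a pair higher and a pair lower. Potri.018G126000 had 5302, 4992, 4253 and 7149.7 normalized counts in the growing leaf libraries, and 1.73, 0, 12.8 and 0 in the expanded leaf libraries. Thus the gene was among the well expressed genes of every growing leaf and close to absent from every expanded leaf, with 22 reads over the 4 expanded libraries together. The log2 difference was 11.07 ± 0.85 (SE, limma on normalized counts plus 1, adjusted p = 4.57e-16). Potri.002G219700 had 3144, 2066, 2141 and 3378 normalized counts in growing leaves, and 0, 0, 0.64 and 1.5 in expanded leaves. Expanded leaves gave 3 reads in all for this gene, and the ratio of the group means was 4469 with a 95% counting interval of 1529 to 21677. Its log2 difference was 10.85 ± 0.69 (limma, adjusted p = 8.19e-19). Fitted by limma on the 8 libraries alone, the adjusted p was 5.73e-06 for Potri.018G126000 and 1.57e-07 for Potri.002G219700.

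The pair at the lower end mirrored this. Potri.013G100800 had 0, 6.37, 0 and 2.69 normalized counts in growing leaves, and 2504, 1405, 1215 and 2666 in expanded leaves. Every expanded library was far above every growing one, and the log2 difference was −9.65 ± 0.63 (limma, adjusted p = 1.97e-18). Potri.013G101000 had 0, 10.2, 1.16 and 1.34 normalized counts in growing leaves, and 1661, 1242, 1243 and 2046 in expanded leaves. Again the groups were far apart, with a log2 difference of −9.11 ± 0.63 (limma, adjusted p = 1.2e-17). By limma on the 8 libraries alone, the adjusted p was 5.4e-06 for Potri.013G100800 and 6.37e-06 for Potri.013G101000. The identifiers of this lower pair lie close to each other in number, and reads shared between near-identical copies were not assessed, so their levels may not be independent.

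Genes that were read in a single kind of leaf were few. At 10 or more normalized counts on average in one position and no read in any of the 4 libraries of the other, 22 genes were found in growing leaves alone and 29 in expanded leaves alone. A gene with no read is not shown to be silent, since fewer than 3 reads over a group could be missed by counting alone.

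**Figure D1:**
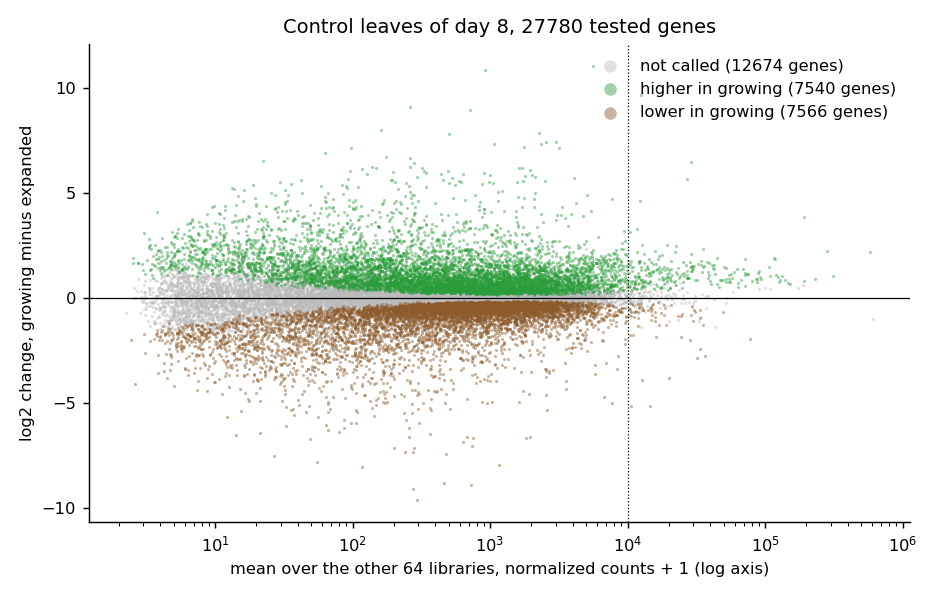
Log2 difference of growing minus expanded control leaves on day 8 for each of the 27780 tested genes, against the mean normalized count plus 1 over the other 64 libraries of the study (log axis, dotted line at 10000). Points are genes, green for the 7540 higher, brown for the 7566 lower and grey for the 12674 not called, and most points right of the dotted line lie above 0.

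Growing leaves on day 8 put a larger share of their messenger RNA into abundant genes. The 421 tested genes that averaged 10000 normalized counts or more over the other 64 libraries took 42.9%, 42.8%, 41.6% and 43.2% of the growing leaf libraries, and 37.4%, 32.4%, 30.5% and 33.1% of the expanded leaf libraries. The groups did not overlap, at 42.6% ± 0.715 against 33.3% ± 2.91 (SD, n = 4 each), a difference of 9.30 percentage points (exact two-sided permutation test, p = 0.0286, the smallest that 4 against 4 libraries allow). Read counts entered this share without any scaling between libraries. The 10 most abundant genes of a library took 9.56% ± 0.395 of growing and 6.87% ± 0.871 of expanded leaf libraries. Correspondingly, 50% of a growing leaf library was made up by 680 to 809 genes, and 50% of an expanded leaf library by 1107 to 1547 genes.

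Among these 421 abundant genes, 232 were higher and 68 lower in growing leaves (71.3% called), with a median log2 difference of 0.64 beside −0.02 over all tested genes. Under equal totals the split was 187 higher and 105 lower, with a median of 0.33 beside −0.32 over all genes. By size factors the other abundance classes were closer to even. Of 7808 genes with a mean from 1000 to 10000, 2365 were higher and 2365 lower, and of 12463 genes from 100 to 1000, 3333 were higher and 3717 lower. Of 5427 genes from 10 to 100, 1337 were higher and 1165 lower, and of 1661 genes below 10, 273 and 251. Under equal totals more genes were lower than higher in each of these classes. The counts were then 1432 higher and 4070 lower from 1000 to 10000, and 1908 and 6151 from 100 to 1000. They were 938 and 1610 from 10 to 100, and 228 and 313 below 10.

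The summed values of the libraries differed as well. Such a sum is the reads of a library divided by its size factor. It therefore reflects the same shift in composition, is not a separate result, and does not measure the amount of RNA in a leaf. Before scaling, the reads averaged 35.2 M in growing and 45.8 M in expanded leaf libraries. Normalized counts of all genes added up to 45 M ± 1.11 in growing leaves and 36.3 M ± 2.02 in expanded leaves (SD, n = 4 each), with no overlap between the groups (exact two-sided permutation test, p = 0.0286). The net difference of 8.69 M was the balance of 14.4 M in genes with a higher mean and −5.73 M in genes with a lower mean. The 100 genes with the largest increases held 6.94 M, or 48.1% of the whole increase. The gene with the largest increase was the most abundant of all in growing leaves, at 971940 ± 83947 normalized counts against 218181 ± 44493 in expanded leaves (log2 difference 2.18 ± 0.38). This 1 gene took 2.16% of the growing leaf total and 0.598% of the expanded leaf total. The gene with the largest decrease was the most abundant of all in expanded leaves, at 918166 ± 166115 against 455613 ± 29441 in growing leaves. Its log2 difference of −0.997 ± 0.481 did not pass the test, which takes scatter from all libraries of the study (limma, adjusted p = 0.0737). The compared groups did not overlap for this gene, with a maximum of 473870 normalized counts in growing and a minimum of 805442 in expanded leaves.

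Leaves from ozone-exposed trees gave the same comparison in libraries that the controls do not share. On day 8, 13957 genes differed between growing and expanded leaves at 80 ppb ozone (50.2% of the genes tested), 7066 higher (25.4%) and 6891 lower (24.8%). At 100 ppb 17155 differed (61.8%), 8329 higher (30%) and 8826 lower (31.8%). Of the 7540 genes higher in growing control leaves, 6163 (81.7%) were higher at 80 ppb as well, which was 87.2% of the list at 80 ppb, and 2 were lower. Of the 7566 lower genes, 5804 (76.7%) were lower at 80 ppb, or 84.2% of that list, and 0 were higher. The exceptions, named after their values were seen, were Potri.006G070600 (log2 difference 1.75 ± 0.52 in controls and −1.55 ± 0.52 at 80 ppb) and Potri.010G248800 (0.45 ± 0.20 and −0.57 ± 0.20). Both were low, at group means of 4.68 to 107 normalized counts. At 100 ppb the shared genes were 6349 higher (84.2% of the control list and 76.2% of the other) and 6119 lower (80.9% and 69.3%), with 20 and 8 called in the opposite direction. In all 3 kinds of air, 11014 genes (72.9% of the control calls) were called in the same direction, 5749 higher and 5265 lower. Differences across the 27780 genes correlated with those of the controls at a Spearman's rho of 0.910 for 80 ppb and 0.865 for 100 ppb, a description across genes that are not independent and share their size factors and filter.

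The genes with the largest differences in the controls were far apart between leaf positions in both ozone treatments too. The log2 difference of Potri.018G126000 was 11.26 at 80 ppb and 11.89 at 100 ppb, and its growing leaf means were 4198 and 5085 normalized counts. Potri.002G219700 differed by 9.82 and 10.17, Potri.013G100800 by −7.29 and −7.47, and Potri.013G101000 by −8.03 and −7.81 on the same scale. The abundant class took 43.6% ± 1.47 of growing and 32.6% ± 1.06 of expanded leaf libraries at 80 ppb, and 42.0% ± 1.18 and 28.3% ± 4.54 at 100 ppb (SD, n = 4 each). Neither pair of groups overlapped (exact two-sided permutation tests, p = 0.0286 each, adjusted over 5 comparisons 0.0357).

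**Figure D2:**
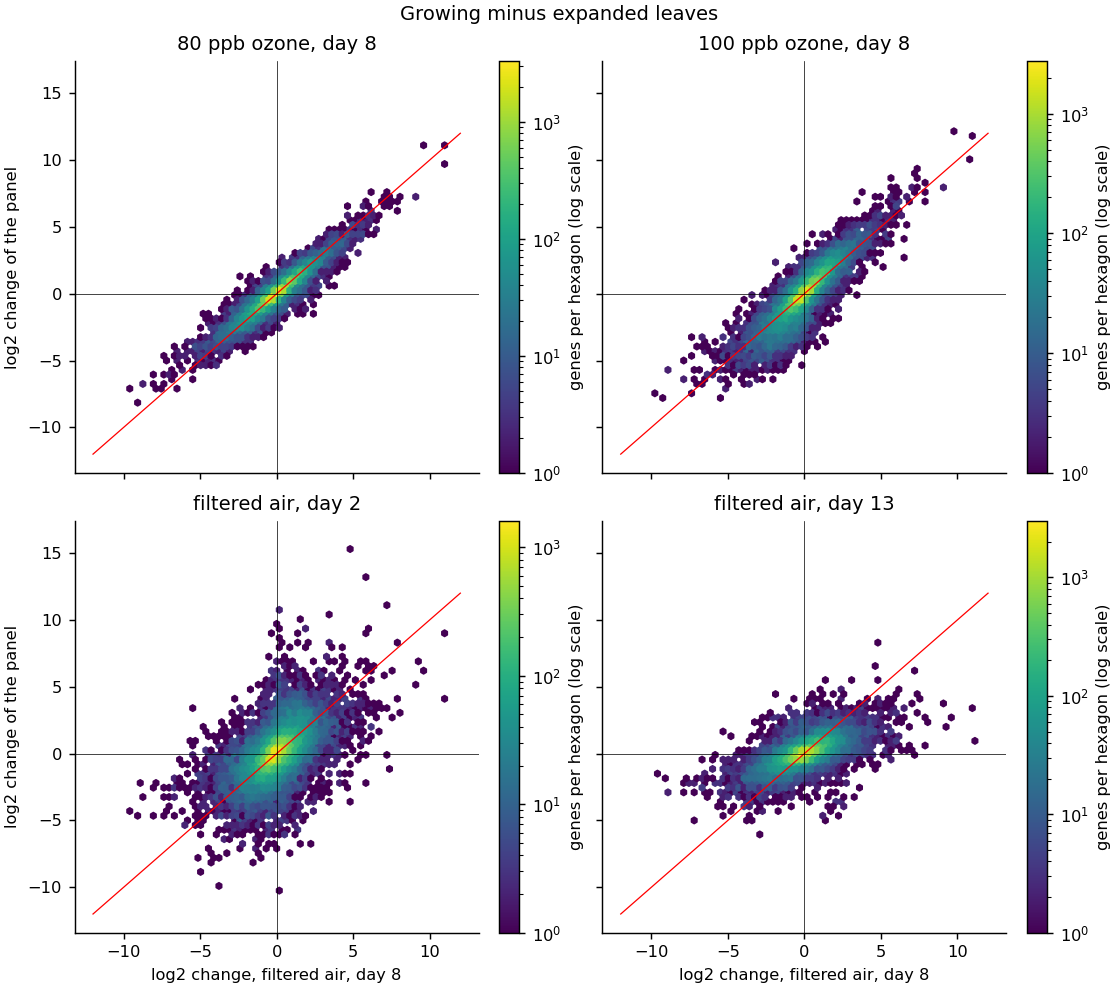
Log2 difference of growing minus expanded leaves for the 27780 tested genes, with filtered air on day 8 on every horizontal axis and another treatment or day on each vertical axis (colour gives genes per hexagon on a log scale, red line marks equal differences). Genes lie along the red line for both ozone treatments on day 8 (rho 0.910 and 0.865), and spread widely around it for the controls of days 2 and 13 (0.577 and 0.601).

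The difference between the leaf positions was not the same on the 3 days. In filtered air 17488 genes differed on day 2 (63% of the genes tested), 9023 higher (32.5%) and 8465 lower (30.5%) in growing leaves. On day 13 there were 6938 (25%), 4156 higher (15%) and 2782 lower (10%). The count of day 13 was 4425 without replicate 2 of its expanded leaves, 11800 under equal totals, 1874 when its 8 libraries were fitted alone and 262 when a replicate block was added to that fit. The smaller number of calls on day 13 is therefore not by itself a measure of how much the leaves differed. By the same fits day 8 gave 16942 genes under equal totals, 17129 with its libraries alone and 16852 with the block added. Over all tested genes the median size of the difference was 0.59 on day 2, 0.48 on day 8 and 0.28 on day 13 (log2 scale). Whether these sizes differed between days was not tested. Genes whose difference changed from day 2 to day 8 numbered 10170 by a test of the change itself (limma, 36.6%), of which 5291 (19%) moved towards growing leaves and 4879 (17.6%) towards expanded leaves. From day 8 to day 13 the difference changed in 6147 genes (22.1%), 3127 (11.3%) towards growing and 3020 (10.9%) towards expanded leaves. These last 2 counts share the libraries of day 8.

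Of the 7540 genes higher in growing leaves on day 8, 4794 (63.6%) were also higher on day 2 and 3015 (40%) on day 13. Of the 7566 lower genes, 4616 (61.0%) were also lower on day 2 and 1872 (24.7%) on day 13. The shares of day 13 depended on the fit. With the compared libraries alone they were 11.2% of the higher and 4.25% of the lower genes, and with a replicate block added 1.84% and 0.447%. Under equal totals the higher genes shared 71.3% with day 2 and 37.7% with day 13, and the lower genes 42.8% and 55.6%. In the fit of all libraries by size factors, the commonest patterns among called genes were a lower level in growing leaves on days 2 and 8 without a call on day 13 (3517 genes), and a higher level on the same days (3166 genes). Higher on all 3 days were 1582 genes, and lower on all 3 days 982. Called on day 8 and on neither of the other days were 1028 higher and 1755 lower genes, which is not a test of a change between days. By limma tests of the change itself, the difference was larger on day 8 than on both other days in fewer genes. These were 708 of the higher and 496 of the lower genes, and choosing the genes on day 8 favours such a peak.

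Some genes were called in opposite directions on different days. On day 2, 658 of the 7540 genes higher in growing leaves on day 8 were lower, and 430 of the 7566 lower genes were higher. Such calls were rarer there than over all tested genes, of which 30.5% were lower and 32.5% higher on day 2. On day 13, 69 of the higher genes were lower and 150 of the lower genes were higher, against 10% lower and 15% higher over all tested genes. These counts are from the fit of all libraries by size factors, and calls of day 13 depended on the fit.

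The abundant class had its reversed order on day 2. On day 2 it took 33.8% ± 1.47 of growing and 42.6% ± 1.99 of expanded leaf libraries, a difference of −8.75 percentage points, against 9.30 on day 8 (SD, n = 4 each, exact two-sided permutation test, p = 0.0286, adjusted over 5 comparisons 0.0357). On day 2, 59 of its 421 genes were higher in growing leaves and 210 lower, and under equal totals 74 and 207. By size factors 32.5% of all tested genes were higher and 30.5% lower on day 2. Day 13 leaned the same way as day 8, with 236 higher and 14 lower, and under equal totals 214 and 49. By size factors 15% of all tested genes were higher and 10% lower on day 13. The class took 39.0% ± 2.52 of growing and 28.8% ± 5.50 of expanded leaf libraries on that day, but 1 expanded library overlapped the growing ones. This share did not pass the test (exact permutation test, p = 0.0571). Growing leaves rose from day 2 to day 8 in this share while expanded leaves fell, and the change between days was not tested.

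To follow the genes without choosing them on the control libraries, those at least 2-fold different between leaf positions at 80 ppb ozone on day 8 were read in the controls. Both sets were chosen for a difference on day 8, so a wider gap and more calls on that day are favoured by the choice. In the 3464 genes higher in growing leaves at 80 ppb, the median log2 level relative to the mean of the 24 control libraries was 1.38 ± 0.02, 0.82 ± 0.02 and −0.36 ± 0.16 in growing leaves on days 2, 8 and 13 (SD, n = 4 each). In expanded leaves it was 0.31 ± 0.17, −0.81 ± 0.16 and −1.24 ± 0.25. The growing leaf groups were lower on each later day without overlap, whereas expanded leaves of days 8 and 13 overlapped in part. The gap between them was 1.07, 1.63 and 0.88 on the 3 days (1.16, 1.33 and 0.66 under equal totals). In the controls 3167 of these genes (91.4%) were called higher on day 8, 2207 (63.7%) on day 2 and 1964 (56.7%) on day 13, against 27.1%, 32.5% and 15% of all tested genes.

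The 2499 genes lower in growing leaves at 80 ppb went the other way. Their level was −1.55 ± 0.03, −0.75 ± 0.14 and 0.46 ± 0.07 in growing leaves and −0.20 ± 0.23, 0.99 ± 0.21 and 1.21 ± 0.59 in expanded leaves of days 2, 8 and 13 (SD, n = 4 each). Expanded leaves of days 8 and 13 overlapped here too. The gap was −1.35, −1.74 and −0.75 (−1.26, −2.03 and −0.99 under equal totals). In the controls 2186 (87.5%) were called lower on day 8, 1516 (60.7%) on day 2 and 881 (35.3%) on day 13, against 27.2%, 30.5% and 10% of all tested genes. In both sets the growing leaves of day 13 had passed the level that the expanded leaves had on day 2. These levels thus differed by day as well as by leaf position, and the labels do not say whether leaves of the same position on different days had the same age.

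**Figure D3:**
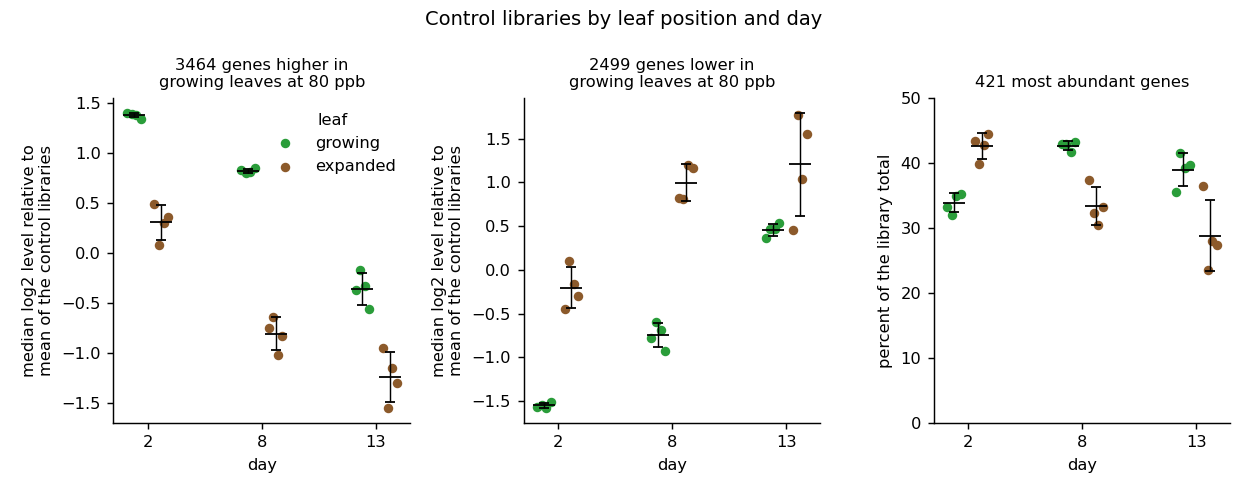
Control libraries by leaf position and day: median log2 level of the 3464 and 2499 genes at least 2-fold higher or lower in growing leaves at 80 ppb ozone on day 8 (relative to the mean of the 24 control libraries), and percent of the library total in the 421 abundant genes (axis from 0). Points are libraries, lines and bars are mean ± SD of 4. The first set is lower and the second higher on later days, with overlap between expanded leaves of days 8 and 13, and of the 3 days the abundant share is lower in growing leaves on day 2 alone.

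These same 4 extreme genes followed the day as well as the leaf. They were chosen for their difference on day 8, so changes measured from that day are favoured by the choice. Potri.018G126000 stood at 28384 ± 2669.9 normalized counts in growing and 109 ± 123 in expanded leaves on day 2 (SD, n = 4 each), and at 1.22 ± 1.24 and 0 on day 13. The gene thus passed from its highest level to a few reads within growing leaves, and its difference fell by 10.09 ± 1.20 on the log2 scale from day 8 to day 13 (limma, adjusted p = 2.88e-08). From day 2 to day 8 its difference changed by 2.08 ± 1.20, which did not pass the test (limma, adjusted p = 0.173). Potri.002G219700 had 2972 ± 1242 against 192 ± 109.8 on day 2 and 21 ± 13.9 against 0.632 ± 0.425 on day 13. Its difference grew by 6.75 from day 2 to day 8 while the growing leaf means differed by less than their SD and expanded leaves were lower on day 8, and it then fell by 7.50 ± 0.97 to day 13 (limma, adjusted p = 1.7e-07). By edgeR on the recovered reads the changes to day 13 of these genes did not pass (adjusted p = 0.994 and 0.257), whereas by DESeq2 they did (adjusted p = 0.00158 and 0.000141).

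Potri.013G100800 and Potri.013G101000 appeared first in expanded and later in growing leaves. Potri.013G100800 had 0.776 ± 1.55 normalized counts in growing and 35.7 ± 28.3 in expanded leaves on day 2, and 499 ± 456 and 1198 ± 685 on day 13 (SD, n = 4 each). In the growing leaves of day 13 its libraries read 607, 142, 147 and 1101, all above any growing library of day 8. Its difference moved by −5.23 from day 2 to day 8 and by 8.10 ± 0.89 from day 8 to day 13 (limma, adjusted p = 4.8e-09 for the latter). Potri.013G101000 had no read in growing leaves on day 2 against 31.3 ± 27.2 normalized counts in the expanded ones, at least 36.9-fold lower if 3 reads in all are taken as the floor of a group. On day 13 it had 429.6 ± 368 and 1207 ± 671. Its difference moved by −4.39 and then by 7.34 ± 0.89 (limma, adjusted p = 3.82e-08 for the latter).

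The next 4 genes had the largest changes of the difference between days 2 and 8. Potri.017G144061 had no read in growing leaves on day 2 against 1333 ± 186 normalized counts in the expanded ones (SD, n = 4), at least 1642-fold lower with the same floor. On day 8 its libraries read 366, 471, 533 and 405 in growing and 343, 585, 392 and 416 in expanded leaves, so that the groups overlapped and did not differ beyond their spread (log2 difference 0.05 ± 0.40, limma, adjusted p = 0.93). The change between the days was 10.42 ± 0.57 (limma, adjusted p = 9.17e-22). Potri.002G078600 turned from 1.06 ± 2.12 against 156 ± 9.31 on day 2 to 118, 134, 131 and 130.5 normalized counts in growing and 32.9, 29, 16 and 20.2 in expanded leaves on day 8. The groups did not overlap on either day and their order had changed, by 9.08 ± 0.84 on the log2 scale (limma, adjusted p = 1.14e-12).

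Both genes that moved the other way were high in growing leaves on day 2. Potri.005G200900 had 1503, 5731, 1765 and 607 normalized counts in those leaves, no read in the expanded leaves of day 2 and none in any control library of days 8 and 13. On day 2 it was at least 3127-fold higher in growing leaves, and the change of the difference was −10.77 ± 0.74 by limma (adjusted p = 1.57e-17), which neither edgeR nor DESeq2 called (adjusted p = 1.00 and 0.112). Potri.019G024600 had 45747 ± 6898 normalized counts in growing leaves on day 2 against 0.256 ± 0.512 in the expanded ones. On day 8 it had fallen to 78.4, 87.8, 65.1 and 60.5 in growing leaves and read 0, 0, 8.96 and 5.24 in expanded leaves. The groups still did not overlap, with a log2 difference of 4.70 ± 0.83 (limma, adjusted p = 3.03e-06), and the change between days was −10.51 ± 1.17 (limma, adjusted p = 3.77e-10).

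**Figure D4:**
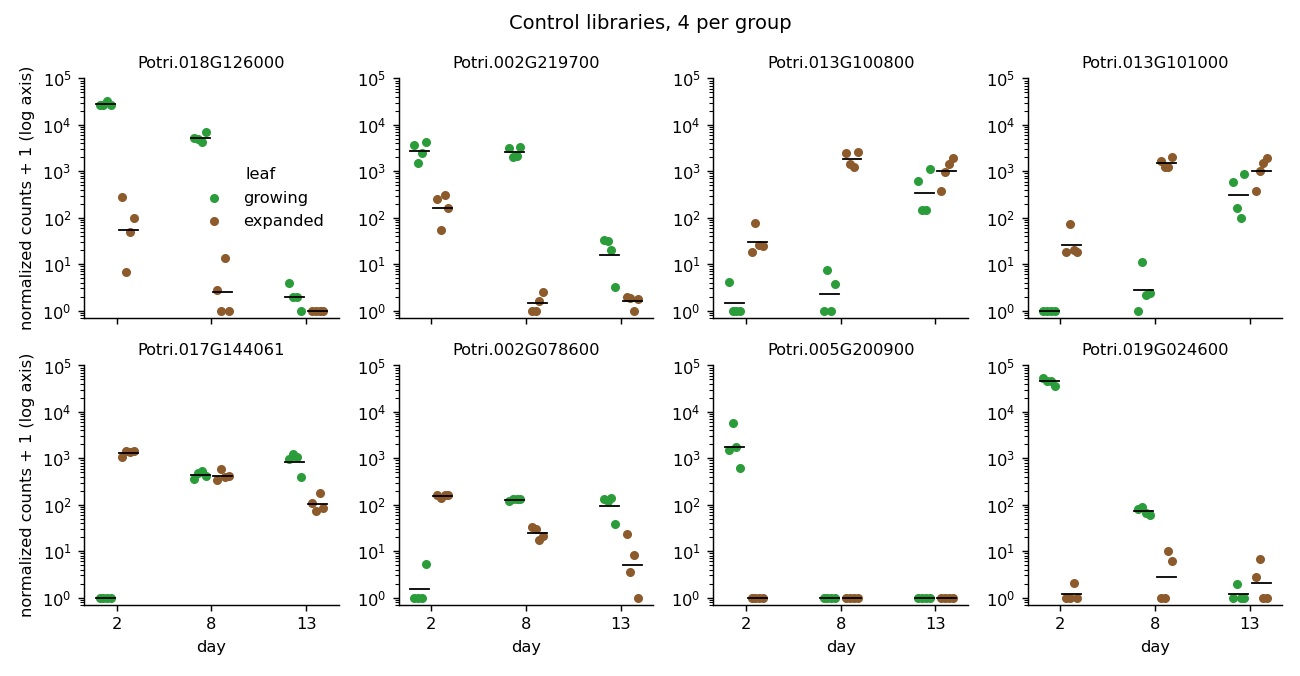
Normalized counts plus 1 (log axis) of the 8 named genes in control libraries by day and leaf position, 4 points per group, with bars at the mean of the log values. Growing and expanded leaves of day 8 are apart in the 4 upper genes, overlap in Potri.017G144061 and both read 0 in Potri.005G200900.

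The growing leaf libraries of day 8 were close to each other. The median SD per gene over the 4 libraries was 0.148 on the log2 scale, the lowest of the 18 groups of the study, and 0.204 in the expanded leaves, which ranked 10 of 18.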

How the data were processed

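Stranded poly(A) libraries were made from TRIzol-extracted leaf RNA and read in pairs, per the labels' protocols. The submitters' processing notes name TopHat2 2.12, featureCounts, Subread 1.6.1 and DESeq2 1.24.0 without roles or parameters, with the genome build not given in the sources used here. Deposited signal values, the authors' normalized counts, were found to be a whole read count times 1 step per library in 100% of values (within 0.01 reads). Genes reaching a value of 10 in 4 or more libraries were tested (27780 of 34699). The main test was limma 3.58.1 in R 4.3.3 on log2 of the value with a pseudocount of 1, a mean per group over all 72 libraries, 54 residual degrees of freedom, eBayes with a trend and Benjamini-Hochberg adjustment per contrast, called at 0.05, two-sided. Fold changes on this scale understate those of low genes. The count models of edgeR 4.0.16 (quasi-likelihood) and DESeq2 1.42.0 were alternatives on the recovered reads. They were alternatives because the deposited values are not raw counts. Abundance classes use the mean of the other 64 libraries. Counting intervals and floors cover counting error only. Named genes passed the test, averaged 100 or more normalized counts in the higher group and had, for the position difference, no overlap. Of these, the 2 with the largest change in each direction are given, since the table pairs no identifier with a name. For the same reason planned lists by product description, promoter motifs and protein sequences were not used here. The comparison, lists and rules were chosen with earlier results of these data known. The limma test of the day 8 contrast was also run on simulated counts, drawn with means and dispersions estimated from these data.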

Additional observations from a re-analysis of the deposited data

Results flagged for a closer look

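Of the 54 groups of 4 values examined, 9 held a single library that stood apart from the other 3. The gap was beyond Dixon's 95% critical value, and all 9 were groups of named genes. Chance alone gives about 1 group in 20, and most of these values are a few reads. For Potri.018G126000 they were growing leaves of day 2, replicate 3, at 32346 normalized counts and expanded leaves of day 8, replicate 3, at 12.8. For Potri.002G219700 it was expanded leaves of day 13, replicate 3, at 0. Potri.013G100800 stood apart in growing leaves of day 2, replicate 1, at 3.11 and in expanded leaves of day 2, replicate 2, at 77.9. Potri.013G101000 did so in the same expanded library at 72.1 and in growing leaves of day 8, replicate 2, at 10.2. The remaining values were 4.24 for Potri.002G078600 in growing leaves of day 2, replicate 4, and 1.02 for Potri.019G024600 in expanded leaves of day 2, replicate 3.

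The difference between leaf positions changed with the day in 10170 genes between days 2 and 8 and 6147 genes between days 8 and 13, each by a test of the change itself (limma). From day 2 to day 8 the change was 10.42 for Potri.017G144061, 9.08 for Potri.002G078600, −10.77 for Potri.005G200900 and −10.51 for Potri.019G024600 on the log2 scale. Over the same days it was 6.75 for Potri.002G219700, −5.23 for Potri.013G100800 and −4.39 for Potri.013G101000. From day 8 to day 13 it was 8.10 for Potri.013G100800, 7.34 for Potri.013G101000, −10.09 for Potri.018G126000 and −7.50 for Potri.002G219700. The share of the 421 abundant genes differed by −8.75 percentage points (growing minus expanded) on day 2 and by 9.30 on day 8. That this share differed between days was not tested.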

How the results depend on the processing

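On day 8 the count of 15106 ranged from 13260 to 14581 with 1 library left out, and was 15070 with TMM, 15006 by edgeR, 15360 by DESeq2, 17129 with the compared libraries alone, and with a replicate block 15649 over all libraries and 16852 over the compared ones. Whether replicate numbers pair the samples was not settled. Deviations of growing and expanded libraries with the same number correlated at 0.04, −0.15, 0.26 and 0.09, too few values to decide it. The share of called genes that were higher was 27.7% under equal totals, 50.9% by edgeR, 56.3% at 2-fold and 49.8% to 50.9% with 1 library left out. Requiring 2-fold left 6366 genes on day 8, 8217 on day 2, 2685 on day 13, 5963 at 80 ppb, 8566 at 100 ppb, 5416 for the change from day 2 to day 8 and 2676 for that from day 8 to day 13. The count of day 13 was 11800 under equal totals, 1874 with its libraries alone and 262 with these and a replicate block. With 1 library left out it ranged from 4425 to 8901, day 2 from 16208 to 16991, 80 ppb from 12388 to 13707, 100 ppb from 15973 to 16945, the change from day 2 from 8545 to 10233 and that to day 13 from 4333 to 7446. The abundant share differed by 8.35 to 10.6 points (9.19 with the class cut at 5000, chosen after seeing the data) and the totals by 8.16 M to 9.65 M. With 3 against 4 libraries the exact permutation p cannot go below 0.0286 and for the abundant share it was 0.0571 without growing replicate 1, 2 or 4. The causes were not tested.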

Other observations

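Genes with neighbouring identifiers tended to move together in the day 8 controls. Where both of 2 adjacent tested identifiers differed at least 4-fold, 83.1% of 360 pairs had the same direction, against 70% of 283 pairs 2 places apart, 51.5% of 204 pairs 5 places apart and 51.4% of 177 pairs 100 places apart. Over all pairs of called genes the share was 55.7% of 8502 adjacent pairs and 50% at 100 places. Runs of at least 3 adjacent identifiers with a 4-fold difference in the same direction numbered 51 and held 182 genes, 18 runs higher and 33 lower in growing leaves, and the longest held 6. Whether such neighbours share reads as near-identical copies was not tested. Across the 19 identifier prefixes that the numbering uses, 50.9% to 57.0% of the tested genes were called.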
